A study of Caenorhabditis elegans with 53 samples.

Results

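The change in nuclear RNA between the second and the first larval stage of the nematode Caenorhabditis elegans was measured in nuclei of whole animals. The comparison holds 7 of the 53 libraries of the series, chosen by their labels alone: the 3 L2 inputs (libraries 1, 2 and 4) and the 4 L1 inputs (libraries 1 to 4). An input library is RNA from the whole preparation of nuclei, taken without the pull-down of tagged neuronal nuclei that the study made from the same kind of preparation. L2 animals were collected 21 ± 1 h and L1 animals 8 ± 1 h after synchronized larvae were put on food, with about 600000 animals pooled for each replicate. All of these animals were controls of 1 strain, UPN INTACT (otIs790), which carries a tag on neuronal nuclei, so both stages share the transgene and no untagged strain enters the comparison. Also used, as a setting for the same genes, were 5 L2 and 4 L1 libraries of neuronal nuclei (neuronal IP) of the same strain and stages, and the inputs of 4 L4 (40 ± 2 h) and 5 adult (53 ± 2 h) preparations, for which about 200000 animals were pooled. Whether replicates came from cultures grown apart is not stated in the labels. The p-values therefore reflect how much these libraries varied, which may be technical.

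Between hatching and the second larval stage a worm sheds its cuticle at a molt and builds the next, stage-specific cuticle from collagens secreted by the epidermis. Blast cells set aside in the embryo divide at this time and add neurons to the ventral cord, muscles and coelomocytes from the M mesoblast, and epidermal cells, while the germ cells start to proliferate. The order of these events is set by the heterochronic pathway, in which the nuclear protein LIN-14 and the RNA-binding protein LIN-28 specify early fates and are turned down by the microRNA lin-4, and later regulators, the let-7 microRNA family, LIN-46 and LIN-29 among them, act after them.

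The L2 inputs held between 15610163 and 30335984 counts on genes, and the L1 inputs between 13396137 and 32095619. Levels are given as CPM (counts scaled to 1000000 per library) and were adjusted for composition between libraries. The first principal component of the 7 libraries took 41.46% of the variance and separated the stages, and the next took 23.44%. On the second, L2 library 4 (77.33) and L1 library 1 (37.32) lay at one end. L1 libraries 2 (-43.44) and 3 (-53.32) lay at the other. Within a stage, libraries correlated with Pearson's r between 0.9354 and 0.9761 among L2 inputs and between 0.9349 and 0.9776 among L1 inputs, over log2 CPM of the genes tested. Counts of calls changed when 1 library was left out, and such counts are given for some of the lists, not for all. RNA of 9 tissues was looked for with 38 defining markers (neurons, intestine, body wall muscle, pharynx, hypodermis, germline, coelomocytes, excretory system and glia). All were detected in every library, at 1.28 to 7690 CPM, and 5 were called between the stages. Such detection cannot tell an input from a neuronal IP. The intestinal marker elt-2 and the excretory marker aqp-8 averaged 10.0 and 57.1 CPM in L2 neuronal IP. In bulk RNA, fewer cells of a type and less RNA per cell cannot be told apart, and this holds for each result that follows.

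Of 16282 genes tested, 938 passed an adjusted p of 0.05, or 5.76%. In L2 inputs 759 of them were higher (4.66% of genes tested) and 179 lower (1.10%), so that 80.9% of the calls were rises. The median log2 fold change was 1.80 over the genes called higher and -1.21 over those called lower, against -0.04 over all genes tested. A change past 2 on the log2 scale was seen in 328 of the rises and in 33 of the falls. The L2 and L1 libraries did not overlap for 754 of the 759 rises and for all 179 falls, as for 20.9% of all genes tested. The number of calls turned on single libraries: it was 406 without L2 library 1, 417 without L2 library 2, 434 without L1 library 2 and 450 without L1 library 3, and it was 1517 without L2 library 4. In a fit of all 16 control inputs, where L4 and adult libraries share in the estimate of spread, 240 genes were called. That fit called 31 collagens, 4 heterochronic and 4 germline genes, 7 detoxification enzymes and 1 gene each of the hedgehog-related list, the antimicrobial list, the chitin list and the intestine as higher. As lower it called 2 genes of DNA replication, 1 guanylyl cyclase and 0 ciliary genes. It also called 2 genes of small RNA pathways, 2 neuropeptide genes, 2 ventral cord regulators and 1 gene of the dauer decision as higher, and 0 neuropeptide genes and 1 ventral cord regulator as lower.

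**Figure D1:**
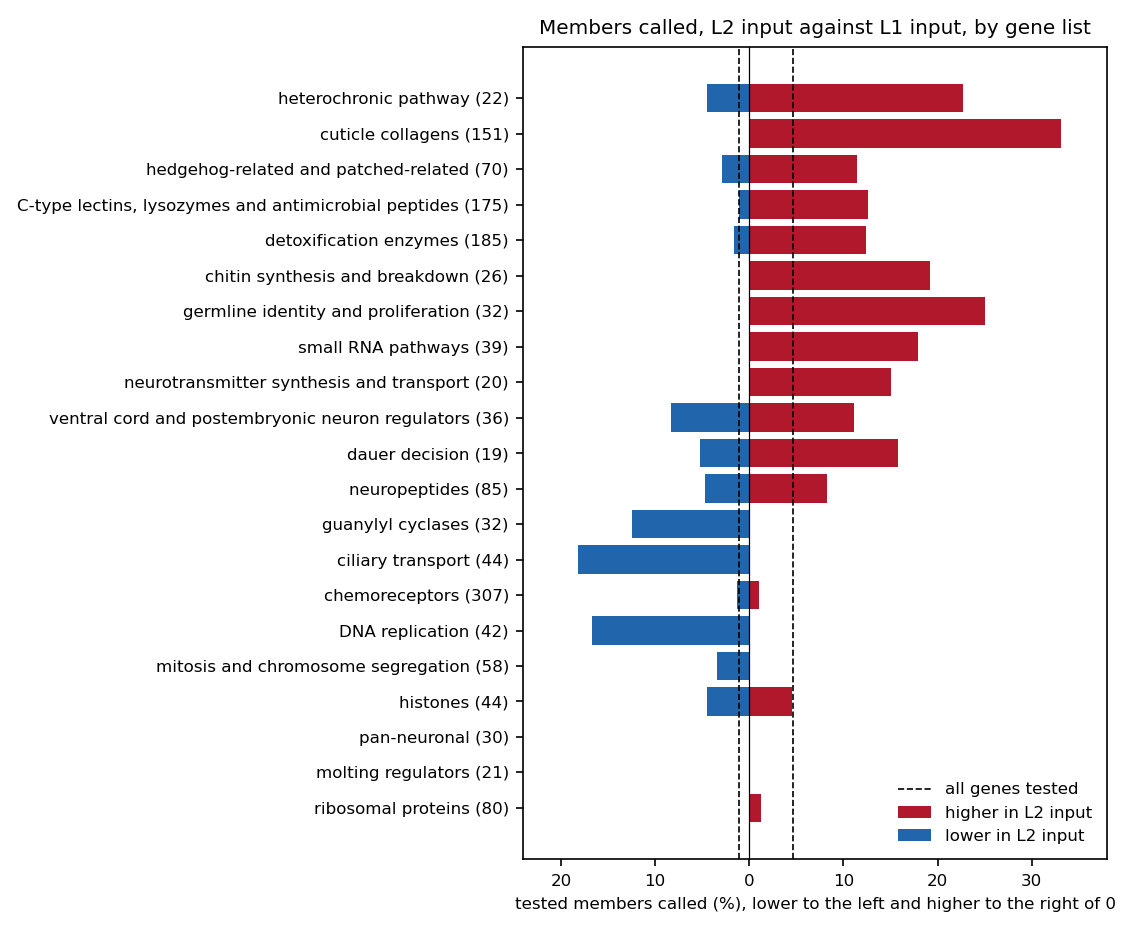
Share of the tested members of 21 gene lists that were called in L2 input against L1 input, in percent, with members called higher to the right of 0 and members called lower to the left. The number of members tested stands in brackets and the dashed lines give the shares over all genes tested, 4.66% higher and 1.10% lower; cuticle collagens, at 33.1%, reach farthest to the right and ciliary transport genes, at 18.2%, farthest to the left.

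The genes that time larval development were split by direction. Of 26 heterochronic genes 22 were tested, and 5 rose and 1 fell, with a median log2 fold change of 0.21. The gene that fell was lin-28 (chromosome I), at 14.9, 18.9 and 23.9 CPM in L2 inputs and at 73.3, 57.4, 68.5 and 64.7 CPM in L1 inputs. Each L2 value was below each L1 value, and the log2 fold change was -1.78 ± 0.20 (SE, adjusted p = 0.00179). The RNA of lin-14, which encodes the early-fate transcription factor, stood at 147, 137 and 210 CPM in L2 inputs and at 203, 207, 205 and 202 CPM in L1 inputs. L2 libraries 1 and 2 were below every L1 library and L2 library 4 was above them all, so the stages overlapped (log2 fold change -0.31 ± 0.18, adjusted p = 0.369). Without L2 library 4 the value was -0.51 (adjusted p = 0.0655).

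The long non-coding RNA lep-5, which lowers LIN-28 protein as larvae mature, was nearly absent from L1 nuclei and rose. The RNA was at 16.9, 9.31 and 5.64 CPM in L2 inputs and at 0.132, 0.145, 0.285 and 0.208 CPM in L1 inputs. The lowest L2 library was far above the highest L1 library, with a log2 fold change of 5.75 ± 0.49 (adjusted p = 0.000588). Exons of lep-5 share positions with H36L18.2 in the authors' gene models, and it is not known here whether counting used strand.

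Late-acting genes of the pathway moved with it. The zinc finger gene lin-29, which drives the larval-to-adult switch in the epidermis, was at 24.5, 23.3 and 15.2 CPM in L2 inputs and between 6.47 and 7.07 CPM in L1 inputs (log2 fold change 1.66 ± 0.22, adjusted p = 0.00324). Its cofactor mab-10 was at 14.2, 5.08 and 11.9 CPM in L2 inputs and between 1.21 and 2.33 CPM in L1 inputs (2.56 ± 0.41, adjusted p = 0.00798). The scaffold gene lin-46, which acts downstream of LIN-28, was at 10.1, 14 and 12.2 CPM in L2 inputs and between 2.55 and 4.40 CPM in L1 inputs (1.73 ± 0.26, adjusted p = 0.00597). The steroid receptor gene daf-12 was at 288, 340 and 186 CPM in L2 inputs and between 76.8 and 112 CPM in L1 inputs (1.53 ± 0.23, adjusted p = 0.00585). None of these groups overlapped, and the calls of lin-28, lep-5, lin-29, mab-10 and daf-12 held in all 13 alternative fits, while that of lin-46 was lost when all control inputs were fitted together (adjusted p = 0.234).

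The other 16 heterochronic genes tested did not pass. The period homologue lin-42 was at 186, 166 and 60.8 CPM in L2 inputs and at 30.7, 52.0, 42.1 and 80.5 CPM in L1 inputs (log2 fold change 1.42 ± 0.42, adjusted p = 0.0889), with L2 library 4 inside the range of L1. Without that library lin-42 was called (1.79, adjusted p = 0.0148), as it was by DESeq2 (adjusted p = 0.0093). The early-fate gene hbl-1 was at 132.3, 122.3 and 110.7 CPM in L2 inputs and between 97.9 and 128 CPM in L1 inputs (log2 fold change 0.13, adjusted p = 0.686). The gene lin-41, the target of let-7 that holds back adult fates, was at 182, 207 and 284 CPM in L2 inputs and between 152 and 222 CPM in L1 inputs (0.32, adjusted p = 0.426). Of the pathway's microRNA genes only let-7 passed the filter on low counts, and it was not called (0.77 ± 1.35, adjusted p = 0.792). The others had few reads. The gene mir-241 had 13, 7 and 20 in L2 inputs and 0, 0, 0 and 2 in L1 inputs, mir-48 had 2, 4 and 2 in L2 inputs and 0 in each L1 input, mir-84 had 0 in all 7, and lin-4 had 5, 6 and 7 in L2 inputs and 13, 2, 0 and 3 in L1 inputs.

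**Figure D2:**
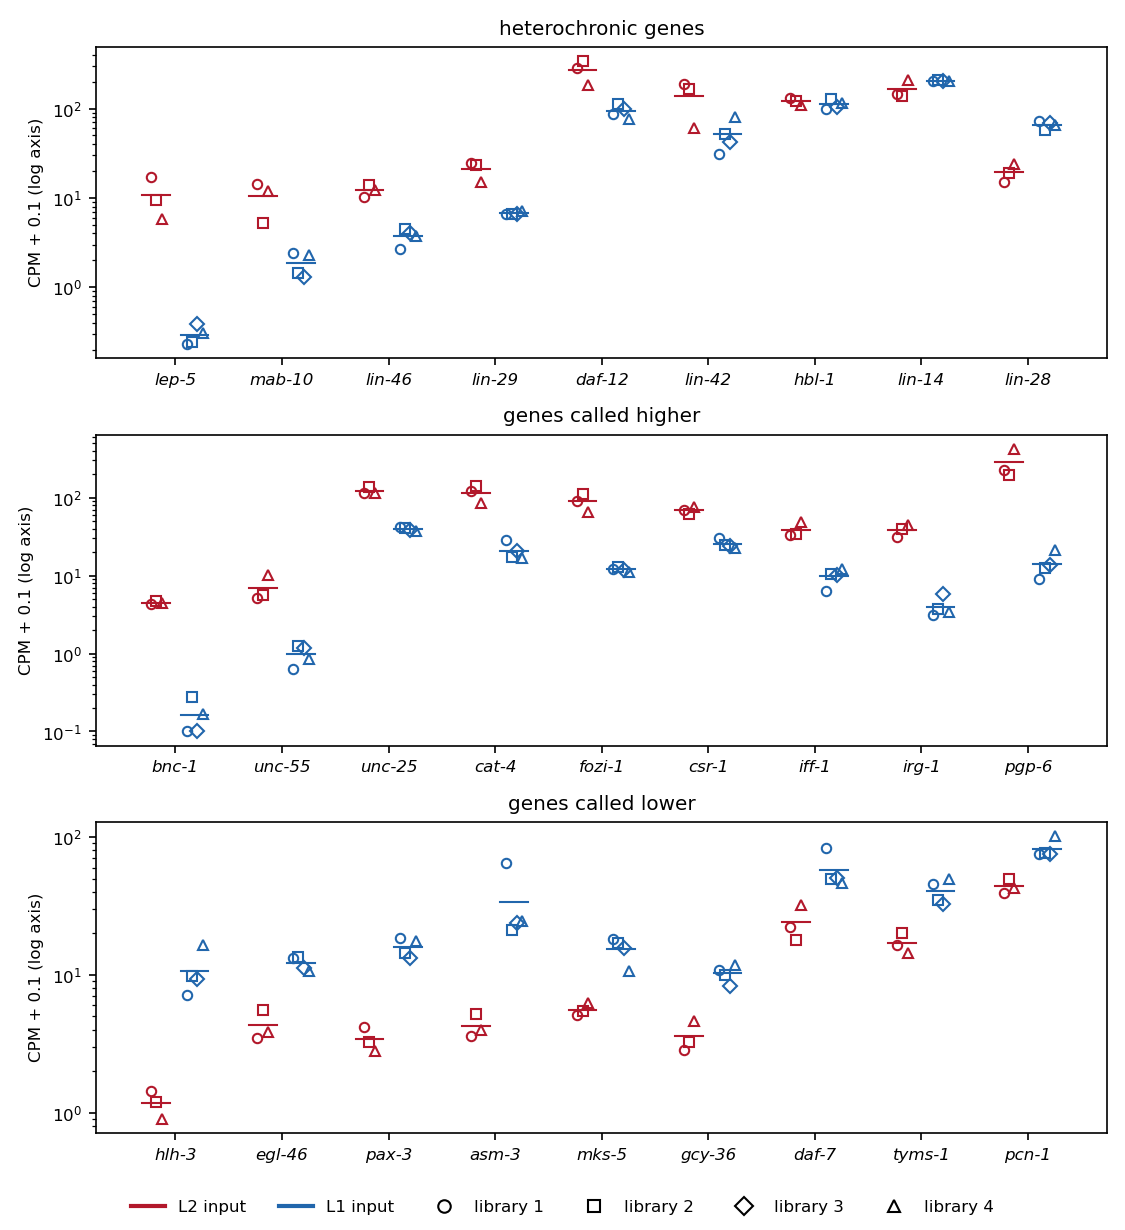
Level of 27 genes in each library, as CPM + 0.1 on a log axis, with L2 inputs in red to the left of L1 inputs in blue, a symbol for each library and a bar at the mean. In the upper panel lep-5, mab-10, lin-46, lin-29 and daf-12 lie higher and lin-28 lower in L2 inputs, while lin-42, hbl-1 and lin-14 overlap; no gene of the other panels overlaps between the stages.

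Cuticle collagens were the list with the most genes called. Of 177 collagen genes of the cuticle 151 were tested, and 50 rose and 0 fell, with a median log2 fold change of 1.81 over the tested members. They lay on all 6 chromosomes, 17 of them on V. Summed over the list, collagens took 78010, 111000 and 24590 CPM in L2 inputs and 18470, 18150, 20760 and 13730 CPM in L1 inputs. The median of the 50 called genes was 206, 450 and 77.3 CPM in the 3 L2 libraries and between 3.68 and 6.07 CPM in the 4 L1 libraries.

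Of the 8 collagen genes with the highest log2 fold changes, 3 were dpy genes, whose mutants have short bodies. The collagen gene dpy-4 was at 719, 2690 and 89.8 CPM in L2 inputs and at 1.50, 5.59, 5.55 and 8.87 CPM in L1 inputs, a log2 fold change of 7.77 ± 1.20 (adjusted p = 0.0104). The collagen gene dpy-13 was at 412, 1560 and 113 CPM in L2 inputs and between 1.85 and 7.90 CPM in L1 inputs (6.99 ± 0.98, adjusted p = 0.0069). The gene dpy-5 was at 225, 743 and 118 CPM in L2 inputs and between 0.837 and 8.94 CPM in L1 inputs (6.56 ± 0.95, adjusted p = 0.00816). The collagen genes col-41, col-161, col-90, col-73 and col-17 had log2 fold changes of 7.48, 7.28, 7.02, 6.97 and 6.04. In all 8 genes L2 library 2 was the highest and L2 library 4 the lowest of the L2 inputs, and the stages did not overlap. In a fit with libraries of the same number as a replicate block, 36 collagens were called higher. All of the 8 genes but col-161 lost their call there (dpy-4 at adjusted p = 0.203).

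The order of the L2 libraries held across the group: L2 library 4 was the lowest L2 input for 48 of the 50 called collagens, and L2 library 2 the highest for 48. Without L2 library 4, 76 collagens were called, and without any 1 of L2 libraries 1 and 2 and L1 libraries 2 and 3 between 26 and 30 were. Some members differed less between the L2 libraries. The gene col-150 was at 25.7, 36.4 and 11.6 CPM in L2 inputs and between 1.01 and 1.88 CPM in L1 inputs (4.02 ± 0.40, adjusted p = 0.00117). The gene col-61 was at 10.4, 12.6 and 5.47 CPM in L2 inputs and between 0.573 and 1.42 CPM in L1 inputs (3.22 ± 0.40, adjusted p = 0.0027). Together with col-91, they were called in all 13 alternatives. Among 32 tested cuticlins 1 rose (cutl-19, 1.35 ± 0.25, adjusted p = 0.0163), or 3.12% against 4.66% of all genes tested. Of the genes that regulate molting, 0 of 21 molting regulators were called by edgeR. Of these 21, 4 had an unadjusted p under 0.05, 1 was called by DESeq2, and 3 were called without L2 library 4.

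**Figure D3:**
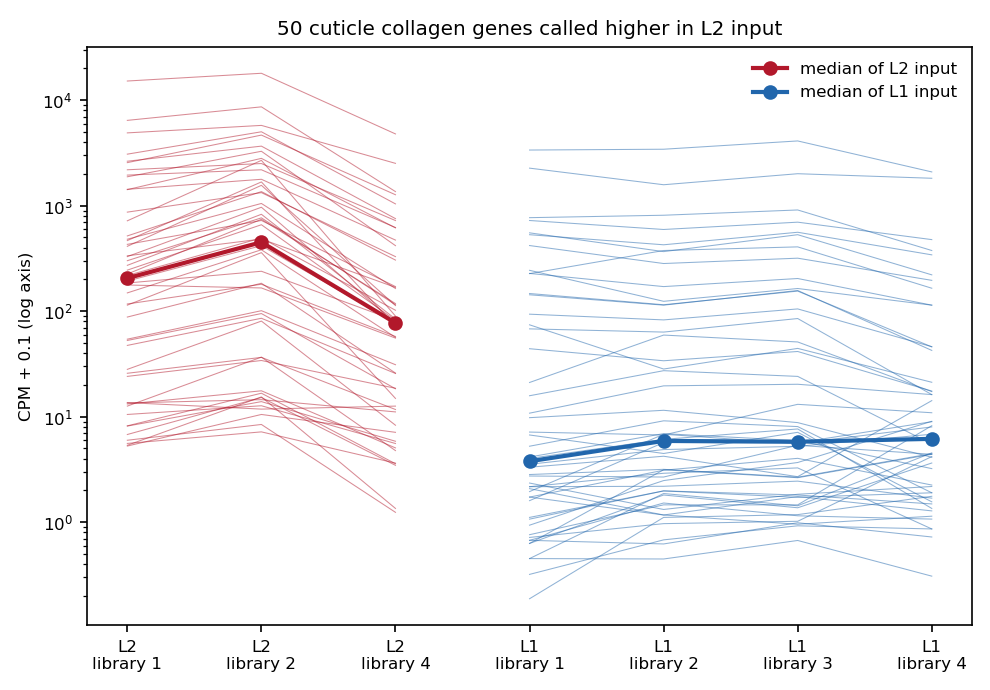
Level of each of the 50 cuticle collagen genes called higher in L2 input, as CPM + 0.1 on a log axis, by library, with a thin line for each gene and the thick line at the median over genes. The L2 medians (206, 450 and 77.3 CPM, left) lie above the L1 medians (3.68 to 6.07 CPM, right), and library 4 is the lowest of the L2 inputs.

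Some other secreted products of the epidermis rose as well. Hedgehog-related proteins are secreted by the worm's epidermis and patched-related proteins are membrane proteins of the same kind as hedgehog receptors; 70 of 85 were tested, and 8 rose and 2 fell (median log2 fold change 0.49). The ground-like gene grl-21 was at 221, 374 and 154 CPM in L2 inputs and between 4.44 and 14.7 CPM in L1 inputs (4.66 ± 0.52, adjusted p = 0.00261). The groundhog gene grd-13 was at 555, 583 and 252 CPM in L2 inputs and between 96.9 and 144 CPM in L1 inputs. The patched-related gene ptr-13 was at 66.0, 59.8 and 99.4 CPM in L2 inputs and between 14.8 and 23.8 CPM in L1 inputs. The ground-like gene grl-10 fell, to 4.91, 4.15 and 1.54 CPM in L2 inputs, against 9.07 to 12.3 CPM in L1 inputs (-1.59 ± 0.38, adjusted p = 0.0411). Without any 1 of L1 libraries 2, 3 and 4 and L2 libraries 1 and 2, 3 to 5 genes of this list were called higher and 0 lower, and 1 was called lower without L1 library 1. Without both L1 library 1 and L2 library 4, 14 were called higher.

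Among 33 enzymes and proteins of the apical matrix 2 rose, the peroxidase gene mlt-7 (1.50 ± 0.24, adjusted p = 0.00816), which cross-links the cuticle, and the astacin protease gene nas-36 (2.00 ± 0.40, adjusted p = 0.0207). The 2 made up 6.06% of the list, near the 4.66% of all genes tested. The summed level of this list was 6848, 4655 and 4231 CPM in L2 inputs and 3268, 3332, 2984 and 7529 CPM in L1 inputs, so L1 library 4 was above every other library, and without it 8 members were called. Without L1 library 3 or L2 library 2, 1 was. Of 26 tested genes of chitin synthesis and breakdown 5 rose. The chitinase gene cht-4 was at 11.5, 10.9 and 4.56 CPM in L2 inputs and between 0.0951 and 0.406 CPM in L1 inputs (5.02 ± 0.52, adjusted p = 0.00128), with no overlap, whereas the chitinase-like genes chil-8, chil-13 and chil-19 lost their calls in 6 or 7 of the alternatives. Without L1 library 2, 3 or 4 or L2 library 1 or 2, 1 or 2 genes of this list were called.

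Genes of ventral cord motor neurons, many of which are born after hatching, moved both ways. Of 36 regulators of the ventral cord and of neurons born after hatching 4 rose and 3 fell (median log2 fold change 0.09). The basonuclin gene bnc-1, a regulator of the postembryonic VA and VB motor neurons, was at 4.16, 4.56 and 4.39 CPM in L2 inputs and at 0, 0.174, 0 and 0.0693 CPM in L1 inputs. It was detected in all L2 libraries and nearly absent from L1 libraries (log2 fold change 5.95 ± 0.78, adjusted p = 0.00326). The nuclear receptor gene unc-55, which gives VD motor neurons their wiring, was at 5.08, 5.45 and 10.1 CPM in L2 inputs and between 0.529 and 1.13 CPM in L1 inputs (2.95 ± 0.40, adjusted p = 0.00368). The cholinergic motor neuron regulator unc-3 (1.43 ± 0.25, adjusted p = 0.0108) and the channel gene del-1 (1.42 ± 0.32, adjusted p = 0.0311) rose too, but del-1 lost its call in 9 of the 13 alternatives.

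The 3 genes that fell in this list act in dividing precursors of neurons. The proneural gene hlh-3 was at 1.33, 1.10 and 0.798 CPM in L2 inputs and at 7.05, 9.68, 9.20 and 16.5 CPM in L1 inputs, a fall by 3.28 on the log2 scale (SE 0.39, adjusted p = 0.00203) with no overlap. The zinc finger gene egl-46, which ends division in neuroblast lineages, was at 3.40, 5.49 and 3.76 CPM in L2 inputs and between 10.5 and 13.4 CPM in L1 inputs (-1.51 ± 0.26, adjusted p = 0.0101). The proneural gene hlh-14 was at 0.575, 0.895 and 0.171 CPM in L2 inputs and between 1.85 and 7.63 CPM in L1 inputs (-2.99 ± 0.65, adjusted p = 0.0288). The calls of unc-55, bnc-1 and hlh-3 held in all alternatives. That of egl-46 was lost without L2 library 1 and in the fit of all 16 control inputs, and that of hlh-14 in 7 of the 13. Without L2 library 1 there was 1 fall in the list.

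Of 20 genes of neurotransmitter synthesis and transport 3 rose and 0 fell. The glutamate decarboxylase gene unc-25, which makes GABA, was at 114, 136 and 114 CPM in L2 inputs and at 41.5, 40.3, 38.6 and 37.0 CPM in L1 inputs (1.63 ± 0.14, adjusted p = 0.000623). The vesicular GABA transporter gene unc-47 was at 25.9, 24.3 and 19.0 CPM in L2 inputs and between 7.76 and 12.4 CPM in L1 inputs (1.30 ± 0.22, adjusted p = 0.0109). Its call was lost without L2 library 1 and in the fit of all 16 control inputs. The gene cat-4, whose product makes the cofactor for dopamine and serotonin synthesis and which is also expressed in the epidermis, was at 121.7, 139.5 and 85.86 CPM in L2 inputs and between 16.6 and 28.8 CPM in L1 inputs (2.47 ± 0.25, adjusted p = 0.00117). By contrast, 0 of 30 pan-neuronal genes were called by edgeR or by DESeq2, and 3 had an unadjusted p under 0.05. Their median log2 fold change was -0.10. Their summed level was 7083, 7507 and 6846 CPM in L2 inputs and between 6667 and 8665 CPM in L1 inputs.

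Genes of sensory cilia and sensory signalling gave falls. Of 44 ciliary transport and transition zone genes 8 fell and 0 rose; the median log2 fold change was -0.78 and 43 of the 44 were below 0. Their summed level was 429.5, 438.4 and 470.4 CPM in L2 inputs and 685.9, 757.9, 728.4 and 595.2 CPM in L1 inputs, without overlap. The transition zone gene mks-5 was at 5.00, 5.33 and 6.10 CPM in L2 inputs and between 10.5 and 18.2 CPM in L1 inputs (-1.49 ± 0.25, adjusted p = 0.00945). The gene mks-6 was at 3.89, 4.39 and 4.67 CPM in L2 inputs and between 8.90 and 13.4 CPM in L1 inputs (-1.36 ± 0.24, adjusted p = 0.0121). The other genes called were nphp-1, bbs-1, dyf-6, che-12, che-2 and mks-3, with log2 fold changes of -1.33, -1.21, -1.01, -0.94, -0.93 and -0.90. The number called depended on single libraries: it was 0 without L2 library 1, 1 without L2 library 2, 2 without L1 library 2 or 3, and 5 without L1 library 1.

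Of 32 tested guanylyl cyclases, receptors and signalling enzymes of sensory neurons, 4 fell and 0 rose (median log2 fold change -0.83, 30 of 32 below 0). The oxygen-sensing soluble cyclase gene gcy-36 was at 2.74, 3.17 and 4.56 CPM in L2 inputs and between 8.18 and 11.7 CPM in L1 inputs (-1.54 ± 0.27, adjusted p = 0.0125). The gene gcy-7, a gene of the ASE taste neurons, was at 2.03, 2.03 and 1.37 CPM in L2 inputs and between 5.20 and 11.6 CPM in L1 inputs (-2.14 ± 0.36, adjusted p = 0.0099). The thermosensory cyclase gene gcy-23 and gcy-15 both had a log2 fold change of -1.47. Without L1 library 2 or 3 or L2 library 1 or 2, 1 or 2 of these calls were left. Chemoreceptor genes were mostly too low to test, and 307 of 1330 were tested. Of these 3 rose and 4 fell, with a median log2 fold change of -0.77. The falls were 1.3% of those tested, near the 1.10% of all genes tested, and the rises 0.977%, against 4.66%. The receptor genes str-176, srw-86 and srj-14 rose, and str-176 was at 57.5, 72.0 and 44.9 CPM in L2 inputs and between 8.11 and 13.7 CPM in L1 inputs (2.32 ± 0.24, adjusted p = 0.00119). In the fits that left out 1 L1 library, or L2 library 1 or 2, 0 chemoreceptor genes were called lower. Without L2 library 4, 10 were, and 12 were without both L1 library 1 and L2 library 4.

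Neuropeptide genes moved in both directions, with 7 of 85 higher and 4 lower (median log2 fold change -0.39). The 7 that rose were nlp genes: nlp-24, nlp-25, nlp-26, nlp-27, nlp-30, nlp-33 and nlp-34. Peptides of nlp-27, nlp-30, nlp-33 and nlp-34 are known as antimicrobial peptides of the epidermis, so that these members do not act as the name of the list says. The gene nlp-24 was at 927, 905 and 401 CPM in L2 inputs and between 45.8 and 127 CPM in L1 inputs (2.94 ± 0.40, adjusted p = 0.00443). The gene nlp-25 was at 15.2, 28.8 and 9.63 CPM in L2 inputs and between 0.811 and 1.68 CPM in L1 inputs (3.80 ± 0.42, adjusted p = 0.00166). The genes that fell were nlp-3 (-0.97), capa-1 (-0.95) and the FMRFamide-like peptide genes flp-1 (-0.84) and flp-14 (-0.72). The gene flp-1, expressed in the AVK interneurons, was at 103, 90.4 and 118 CPM in L2 inputs and between 172 and 198 CPM in L1 inputs (adjusted p = 0.0182). Without L2 library 1 or 2 the number of falls was 0, with 4 rises in each. Without L1 library 2 or 3 there were 4 rises and 2 or 1 falls, without L1 library 4 there were 4 rises, and without L1 library 1 there were 2 falls.

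Genes around the decision between reproductive growth and dauer arrest also changed, 3 of 19 higher and 1 lower. The cytochrome P450 gene daf-9, which makes the dafachronic acid ligand of DAF-12, was at 8.49, 8.42 and 9.80 CPM in L2 inputs and between 1.39 and 2.38 CPM in L1 inputs (2.33 ± 0.28, adjusted p = 0.00248). The dehydrogenase gene dhs-16, of the same hormone pathway, was at 10.6, 7.32 and 7.69 CPM in L2 inputs and between 1.76 and 3.47 CPM in L1 inputs (1.65 ± 0.32, adjusted p = 0.0179). The receptor gene daf-12 rose with them, as given among the heterochronic genes. The TGF-beta gene daf-7, made by the ASI sensory neurons, was at 22.2, 17.7 and 32.0 CPM in L2 inputs and at 83.1, 49.9, 50.6 and 46.6 CPM in L1 inputs (-1.26 ± 0.28, adjusted p = 0.0301). L1 library 1 was far above the others. The call was lost without L2 library 1 or 2 or L1 library 2 or 3, and with a replicate block. Of 26 tested insulin-like peptide genes ins-33 rose (4.97 ± 0.96, adjusted p = 0.0248) and ins-30 fell (-1.04 ± 0.23, adjusted p = 0.0311). Each was 3.85% of the list, against 4.66% higher and 1.10% lower over all genes tested. The fall was lost in 8 of the 13 alternatives, among them those without L1 library 1, 2 or 3 or L2 library 1 or 2. The rise was lost in 6, among them those without L1 library 2 or any 1 of the L2 libraries.

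Of 32 genes of germline identity and proliferation 8 rose and 0 fell, with a median log2 fold change of 0.61. The Argonaute gene csr-1, which protects germline transcripts, was at 68.8, 62.2 and 75.9 CPM in L2 inputs and between 22.6 and 29.9 CPM in L1 inputs (1.45 ± 0.16, adjusted p = 0.00179). The P granule helicase gene glh-1 was at 84.0, 71.1 and 123 CPM in L2 inputs and between 28.2 and 43.2 CPM in L1 inputs (1.42 ± 0.22, adjusted p = 0.00722). The gene iff-1, a translation factor gene of the germline that shares exon positions with T05G5.17, was at 33.4, 33.9 and 47.8 CPM in L2 inputs and between 6.30 and 12.1 CPM in L1 inputs (1.98 ± 0.25, adjusted p = 0.00273). These 3 calls held in all alternatives.

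The other germline genes that rose were the stem cell regulator fbf-1 (1.69), the P granule genes pgl-3 (1.61) and pgl-1 (1.31), the Pumilio gene puf-8 (1.19) and the nuclear Argonaute gene hrde-1 (0.89). L2 library 4 was the highest L2 input for 6 of the 8 and the lowest for 0. Without L2 library 1 or any 1 of the L1 libraries the number of calls was between 3 and 5. Genes of meiosis and oocytes gave 1 call among 32 (him-5, 1.46 ± 0.35, adjusted p = 0.0437), sperm genes 0 among the 16 of 69 that could be tested (1 with an unadjusted p under 0.05), and vitellogenins 0 among 6 (0 with an unadjusted p under 0.05). DESeq2 called 0 in both lists. Of 39 small RNA pathway genes 7 rose and 0 fell: csr-1 and hrde-1 again, the Argonaute genes ppw-2 (1.56), sago-1 (0.99), sago-2 (0.88) and ppw-1 (0.86), and the double-stranded RNA uptake gene sid-2 (0.75). Without L1 library 2 or 3 or L2 library 1, 2 of these were left, and without L2 library 2, 4 were.

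Of 42 tested genes of DNA replication 7 fell and 0 rose; the median log2 fold change was -0.47, and 38 of the 42 were below 0. Their summed level was 1220, 1331 and 1444 CPM in L2 inputs and 1942, 1775, 1715 and 2308 CPM in L1 inputs, without overlap. The thymidylate synthase gene tyms-1 was at 16.4, 20.0 and 14.2 CPM in L2 inputs and between 32.4 and 49.6 CPM in L1 inputs (-1.26 ± 0.22, adjusted p = 0.0112). The sliding clamp gene pcn-1 was at 39.4, 49.5 and 42.6 CPM in L2 inputs and between 74.7 and 101 CPM in L1 inputs (-0.90 ± 0.18, adjusted p = 0.0195). The others were the helicase genes mcm-5 (-0.98), mcm-6 (-0.85) and mcm-7 (-0.64) and the polymerase genes pole-1 (-0.87) and pola-1 (-0.65). The number called was 0 without L2 library 1, 2 without L2 library 2 or L1 library 2 or 3, and 4 without L1 library 4.

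Of 58 mitotic genes 2 fell, the condensin gene smc-4 (-0.68 ± 0.14, adjusted p = 0.025) and the kinetochore gene knl-1 (-0.71 ± 0.17, adjusted p = 0.0375), and 50 of the 58 were below 0 (median -0.39). Of these calls, 0 were left without L2 library 1 or 2 or L1 library 1, 2 or 3, 1 was left without L1 library 4, and 11 members were called without L2 library 4. Among 44 tested histone genes the linker histone genes hil-5 (1.40 ± 0.23, adjusted p = 0.00869) and hil-4 (1.02 ± 0.20, adjusted p = 0.0202) rose, and the core histone genes his-31 (-1.18) and his-32 (-0.95) fell. Each direction held 4.55% of the list, against 4.66% higher and 1.10% lower over all genes tested. Core histone genes are near-identical copies, so the counts of his-31 and his-32 are uncertain. The cell death activator gene egl-1, named after its values were seen, was at 0.133, 0.244 and 0.057 CPM in L2 inputs and between 1.21 and 1.85 CPM in L1 inputs (-3.28 ± 0.61, adjusted p = 0.016). The stages did not overlap. The call was lost without L2 library 1, in the fit of all 16 control inputs and with a replicate block.

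Postembryonic mesoderm and the ventral epidermis gave a few strong changes. The gene fozi-1, a regulator of M lineage fates including coelomocytes, was at 90.4, 111 and 66.1 CPM in L2 inputs and at 12.1, 12.9, 11.5 and 11 CPM in L1 inputs. The L1 libraries lay close together and far below each L2 library (log2 fold change 2.91 ± 0.20, adjusted p = 0.000227). The homeobox gene mls-2, which patterns early divisions of the M lineage, was at 1.28, 1.02 and 1.42 CPM in L2 inputs and between 4.12 and 5.95 CPM in L1 inputs (-2.11 ± 0.31, adjusted p = 0.00575). The gene pax-3, a regulator of ventral epidermal P cells, was at 4.07, 3.17 and 2.68 CPM in L2 inputs and between 13.1 and 18.5 CPM in L1 inputs (-2.25 ± 0.25, adjusted p = 0.00179). The vulval precursor regulator lin-31 was at 9.51, 8.75 and 3.99 CPM in L2 inputs and between 1.51 and 2.22 CPM in L1 inputs (2.03 ± 0.35, adjusted p = 0.0114). Of 25 tested genes of vulval induction and morphogenesis, lin-31 was the 1 rise, and dep-1 (-0.81) and egl-38 (-0.96) fell. These made up 4.0% higher and 8.0% lower, against 4.66% and 1.10% over all genes tested. Without L2 library 1 or 2, 0 genes of that list were called. The sex determination regulator tra-1 rose by 1.09 ± 0.16 on the log2 scale (adjusted p = 0.00536). Of 5 coelomocyte genes 2 rose, fozi-1 and the channel gene lgc-26 (1.48 ± 0.30, adjusted p = 0.0222), and unc-122, cup-4 and ceh-34 were not called (log2 fold changes 0.31, 0.69 and -0.07). Without L1 library 2 or L2 library 1 or 2 only fozi-1 was called in that list.

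Some genes of the intestine and of defence against microbes and toxins changed, most of them upward, as did 80.9% of all genes called. Of 175 tested C-type lectins, lysozymes and antimicrobial peptides, 22 rose and 2 fell (median log2 fold change 0.29), and of 185 detoxification enzymes 23 rose and 3 fell (median 0.15). The flavin monooxygenase gene fmo-4 was at 186, 98.5 and 172 CPM in L2 inputs and between 10.1 and 13.9 CPM in L1 inputs (3.74 ± 0.25, adjusted p = 0.000227). The glucuronosyltransferase gene ugt-18 was at 46.4, 55.8 and 38.6 CPM in L2 inputs and between 4.67 and 7.48 CPM in L1 inputs (2.95 ± 0.22, adjusted p = 0.000379). The lectin gene clec-66 was at 126, 131 and 143 CPM in L2 inputs and between 27 and 45.9 CPM in L1 inputs (2.06 ± 0.22, adjusted p = 0.00128). The lysozyme gene lys-4 was at 70.9, 70.1 and 54 CPM in L2 inputs and between 12.2 and 20.6 CPM in L1 inputs.

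The saposin-like gene spp-1 (-1.40), the cytochrome P450 gene cyp-35D1 (-2.46) and the glutathione S-transferase gene gst-4 (-0.95) fell. Without any 1 of L1 libraries 2 and 3 and L2 libraries 1 and 2, 10 or 11 genes of the first list and 12 to 15 of the second were called higher, and 14 of the first without L1 library 1. The 40 tested genes of the intestine gave 3 rises and 0 falls: the protease gene cpr-3 (1.89 ± 0.22, adjusted p = 0.00197), the filament gene ifd-2 (1.10 ± 0.22, adjusted p = 0.019) and the intestinal master regulator elt-2, at 45.7, 43.1 and 33.2 CPM in L2 inputs and between 18.9 and 26.0 CPM in L1 inputs (0.87 ± 0.19, adjusted p = 0.0273). The 3 rises were 7.5% of the list, against 4.66% of all genes tested. The call of elt-2 was lost in 8 of the 13 alternatives. For the intestine, 1 gene was called higher without L1 library 2 or L2 library 1, and 5 were without L2 library 4. Of 37 genes of fatty acid and glyoxylate metabolism 3 rose, ech-6 (1.82), ech-9 (3.05) and dhs-28 (0.76), and 1 was left without L1 library 2 or 3 or L2 library 1 or 2. Among 19 heat shock genes the endoplasmic reticulum chaperone gene hsp-4 rose (1.61 ± 0.20, adjusted p = 0.00252).

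Many other lists, some of them of housekeeping genes, gave few or no calls. Over all genes tested 4.66% rose and 1.10% fell. Of 80 ribosomal protein genes 1 rose (rpl-11.1, 1.40 ± 0.21, adjusted p = 0.0058, a paralogue whose reads could be split with its copy), while edgeR called 0 of 63 mitochondrial ribosome genes, 0 of 35 ribosome biogenesis genes, 0 of 6 Hox genes and 0 of 26 Wnt pathway genes. DESeq2 also called 0 in these 4 lists, and an unadjusted p under 0.05 was found for 8 of the Wnt genes and 0 of the others. Of 38 microRNA genes edgeR called 0, DESeq2 called 1 higher and 2 lower, and 5 had an unadjusted p under 0.05. Body wall muscle gave 1 rise among 38 (unc-105, 0.78) with 35 of 38 above 0, and 10 without L2 library 4. The pharynx gave 2 rises among 22 (9.09%), phat-4 (3.51 ± 0.69, adjusted p = 0.0273) and marg-1 (1.15 ± 0.25, adjusted p = 0.0283). Of these, 0 were left without any 1 of L1 libraries 2, 3 and 4 and L2 libraries 1 and 2. Of 228 nuclear hormone receptor genes 4 rose, nhr-101 (1.40) and nhr-68 (1.41) among them, and 2 fell. Of the falls, 0 were left without L1 library 1, 2 or 3 or L2 library 1 or 2. Without L2 library 4, 7 genes of this list were called higher and 6 lower.

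By size, the 10 genes with the highest log2 fold changes among called genes with a symbol and at least 10 CPM on average in the higher stage were the 8 collagen genes above and the fungus-induced peptide-related genes fipr-7 (6.24) and fipr-9 (6.21). The 10 lowest were hlh-3 (-3.28), the sphingomyelinase gene asm-3 (-3.01), pax-3 (-2.25), the bZIP gene zip-8 (-2.0), lin-28 (-1.78), grl-10 (-1.59), the potassium channel gene twk-11 (-1.54), gcy-36 (-1.54), egl-46 (-1.51) and mks-5 (-1.49). The gene asm-3 was at 3.49, 5.08 and 3.87 CPM in L2 inputs and at 64.7, 20.9, 23.8 and 24.4 CPM in L1 inputs, where L1 library 1 stood far above the rest, and it shares exon positions with W03G1.10. The gene zip-8 was at 29.4, 26.3 and 22.4 CPM in L2 inputs and between 67.5 and 133 CPM in L1 inputs (adjusted p = 0.0027).

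Some gene families, chosen here after their values were seen, often rose. Of the transthyretin-related genes 12 of 48 tested rose; ttr-15 was at 1410, 1470 and 893 CPM in L2 inputs and between 125 and 157 CPM in L1 inputs (3.13 ± 0.22, adjusted p = 0.000256). The gene ttr-59 was at 64.6, 91.3 and 64.2 CPM in L2 inputs and between 5.48 and 10.9 CPM in L1 inputs (3.23 ± 0.27, adjusted p = 0.000536). Of 14 tested P-glycoprotein genes 4 rose and 1 fell, with a median log2 fold change of 0.62. Among them pgp-5, pgp-6 and pgp-7, transporters encoded on chromosome X, rose by 3.88, 4.33 and 4.23 on the log2 scale. The gene pgp-6 was at 228, 194 and 423 CPM in L2 inputs and between 8.90 and 21.4 CPM in L1 inputs (adjusted p = 0.000588). The infection response gene irg-1 was at 31.0, 39.0 and 44.6 CPM in L2 inputs and between 3.04 and 5.61 CPM in L1 inputs (3.29 ± 0.26, adjusted p = 0.000389). Of the nematode-specific peptide families nspb and nspc, 7 of 9 and 8 of 13 tested members rose, and of the fipr genes 9 of 16; their members are near-identical copies, so their separate counts are uncertain.

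Some called genes that rose were neighbours. Runs of falls were not counted, and whether neighbours rose together more often than by chance was not tested. There were 9 runs of at least 3 adjacent tested genes that all rose, holding 32 of the 759 rises. The longest had 7 genes on chromosome V, from 3369160 to 3417723 in the coordinates of the count table, whose genome build is not given in the sources used here; it holds T20D4.11, at 6.50, 5.33 and 5.81 CPM in L2 inputs and at 0, 0.029, 0 and 0.0693 CPM in L1 inputs (log2 fold change 7.88 ± 0.63, adjusted p = 0.000389). The next had 4 nspc genes on X, and others held col-92 to col-94 on III, col-141 to col-143 on V, and pgp-7 with pgp-6 on X. By chromosome, the share of tested genes that rose was 7.19% on V, 5.19% on X, 4.17% on II, 3.98% on IV, 3.43% on III and 3.04% on I. Protein-coding genes made up 749 of the 759 rises and 14517 of the 16282 genes tested. Among protein-coding genes 5.16% rose, against 4.66% of all genes tested.

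The same genes were then followed to later stages. Levels over the 16 control inputs were put on 1 scale and are described without a test, since all stages share the L1 and L2 libraries of the comparison. A level in CPM is a share of a library, and L4 and adult animals hold a grown germline. How far this lowers the share of other genes in L4 and adult inputs was not tested. Rises were chosen for L2 above L1 in these same libraries, and falls for the reverse. A highest mean in L1 for a rise, or a lowest for a fall, was therefore all but excluded in advance. The same counts over all genes are not given here. Of the 758 rises with values in that set, the highest stage mean was in L2 for 559, in adults for 77 and in L4 for the rest. Of 177 such falls, the lowest stage mean was in L2 for 43, in L4 for 62 and in adults for 72.

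Timing genes had different courses. The mean of lin-28 was 60.0 ± 5.29, 16.5 ± 4.16, 10.3 ± 1.74 and 21.6 ± 2.88 CPM in L1, L2, L4 and adult inputs (SD, n = 4, 3, 4 and 5), and that of lin-14 was 186 ± 7.03, 142 ± 36.5, 60.7 ± 4.29 and 27.6 ± 4.08 CPM. The means of daf-12 and lin-46 were highest in L2: daf-12 was at 85.7 ± 16.1, 232 ± 64.1, 67.8 ± 13.1 and 42.1 ± 6.62 CPM, and lin-46 at 3.32 ± 0.772, 10.4 ± 1.69, 1.38 ± 1.40 and 1.81 ± 0.804 CPM in the same order. In contrast lep-5 was highest in L4, at 0.175 ± 0.0615, 9.06 ± 4.79, 264 ± 27.4 and 84.9 ± 66.0 CPM, as was mab-10, at 1.61 ± 0.509, 8.91 ± 4.05, 82.5 ± 60.6 and 34.6 ± 12.1 CPM. In L4 library 4 mab-10 was at 173 CPM, against 43.3 to 58.1 CPM in the other L4 inputs, whose mean of 52.3 CPM was still the highest of the stages.

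Germline genes were highest in the last stages, csr-1 at 23.0 ± 3.04, 59.2 ± 6.77, 438 ± 144 and 381 ± 107 CPM in L1, L2, L4 and adult inputs, and each of the 8 called germline genes had its lowest mean in L1. Among all 758 rises, 304 had their lowest mean in L1. The replication gene mcm-6 was lowest in L2, at 76.1 ± 6.34, 39.9 ± 7.42, 111 ± 42.0 and 280 ± 53.9 CPM. The GABA gene unc-25 was highest in L2, at 35.8 ± 2.51, 104.2 ± 10.5, 14.3 ± 2.94 and 11.1 ± 1.58 CPM. Of the 50 called collagens, the highest stage mean was in L2 for 27, in L4 for 18 and in adults for 5: col-41 was at 2.36 ± 1.40, 390 ± 390, 34.7 ± 53.0 and 1.48 ± 1.07 CPM, and dpy-13 at 4.99 ± 2.38, 593 ± 652, 1860 ± 776 and 30.2 ± 33.6 CPM. L4 library 4 stood apart from the other L4 inputs for these genes, at 114 CPM for col-41 (others 7.06 to 10.2) and 713 CPM for dpy-13 (others 2140 to 2430). Without it the highest stage mean was in L2 for 24 collagens and in L4 for 21. For col-41 and dpy-13 the SD of the L2 libraries was as large as their mean or larger.

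**Figure D4:**
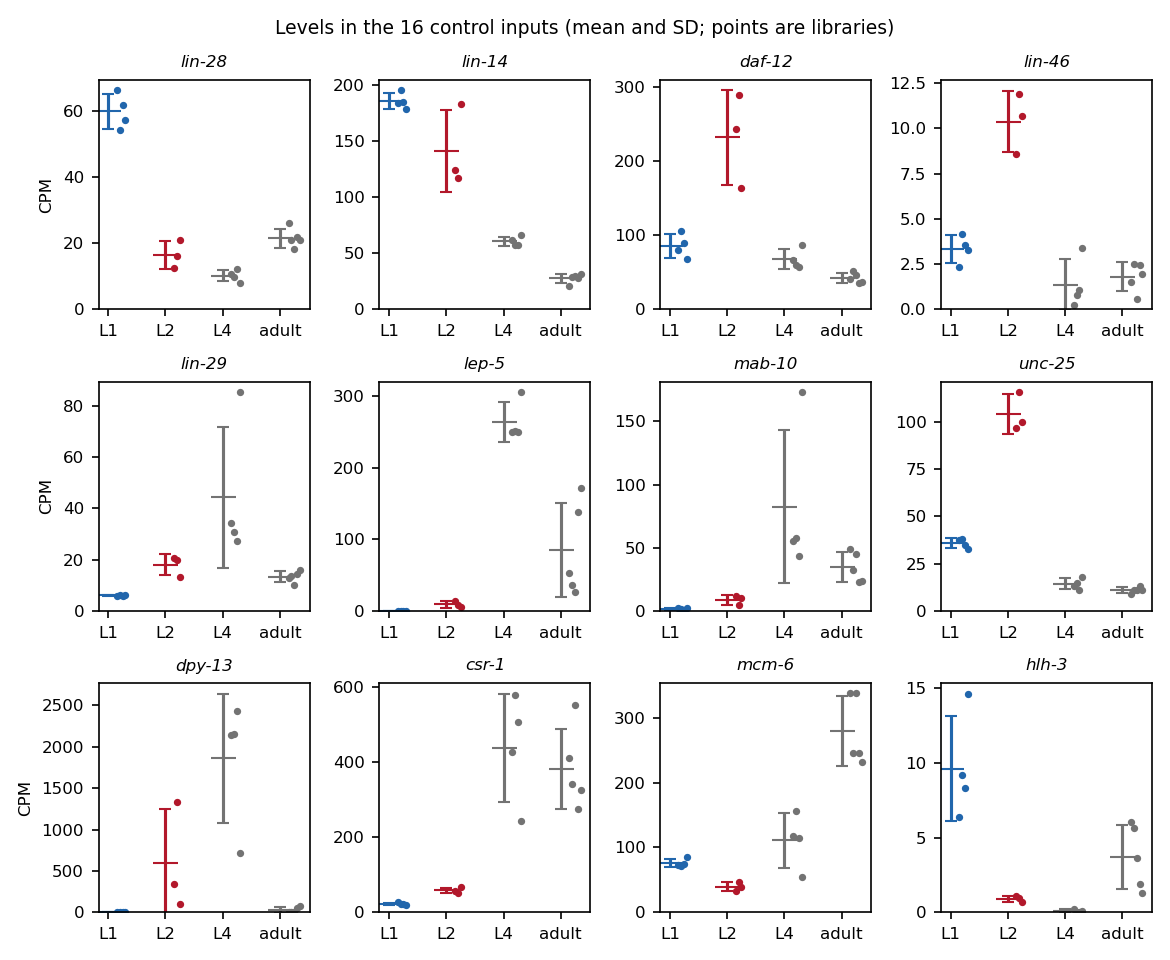
Level of 12 genes in the 16 control inputs, in CPM on a linear axis, at L1 (blue), L2 (red), L4 and adult (grey), with the mean and SD beside a point for each library; bars that would pass below 0 are not shown there. The means of daf-12, lin-46 and unc-25 are highest at L2, those of lep-5, mab-10, lin-29, dpy-13 and csr-1 at L4, and that of mcm-6 is lowest at L2.

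The same stages were compared in neuronal nuclei, in a joint fit of 16 libraries (7 inputs and 9 neuronal IP), to ask where the change in whole-animal nuclei differed from that in neurons. In that fit 1308 of 18855 genes were called higher (6.94%) and 374 lower (1.98%) in L2 against L1 neuronal IP. Of the 758 genes called higher in input that were tested, 750 had the same sign in neuronal IP and 577 were also called higher there. Their median log2 fold change was 1.83 in input and 1.77 in neuronal IP. Of the 179 called lower in input, 168 had the same sign and 65 were also called lower, with a median of -1.19 in input and -0.63 in neuronal IP. Both sets were chosen for their change in these same input libraries, which can make their input medians too large. These medians therefore cannot show that a change was smaller in neurons. The share of all genes with the same sign in both was not counted. Epidermal products were among the shared rises: 47 of the 50 collagens were called in neuronal IP, with a median of 3.51 there and 3.47 in input, and dpy-4 averaged 207 ± 156 CPM in L2 neuronal IP (SD, n = 5) and 3.25 ± 1.52 CPM in L1 neuronal IP (n = 4). Collagens are made outside neurons, and the share of RNA from other nuclei in the neuronal IP libraries was not tested.

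The difference between the 2 changes passed an adjusted p of 0.05 for 2 of 18855 genes (0.0106%), and DESeq2 called 15, these 2 among them. Of the genes tested, 795 had an unadjusted p under 0.05, of which 277 moved more upward in input and 518 less. That fit did not pair input and neuronal IP libraries of the same number. With libraries of the same number and stage taken as 1 preparation, 28 genes were called, these 2 among them. Of the 28, 11 moved more upward in input and 17 less. The gene fozi-1 averaged 58.6 ± 11.4 CPM in L2 neuronal IP and 32.9 ± 4.85 CPM in L1 neuronal IP, a log2 fold change of 0.83 ± 0.19, against 2.93 in input in the same fit. The difference was 2.10 ± 0.28 (adjusted p = 0.0103), and its adjusted p was 0.0836 without L2 input library 2 and 0.0544 without L1 input library 3. The gene ZC434.9 (chromosome I) was at 90.8, 113 and 166 CPM in L2 inputs and between 21.2 and 27.7 CPM in L1 inputs, and averaged 92.7 ± 14 CPM in L2 neuronal IP and 63.2 ± 12.2 CPM in L1 neuronal IP. Its difference of 1.76 ± 0.28 had an adjusted p of 0.0495, which was 0.000203 with DESeq2 and up to 0.287 in the fits without a library, reached without L2 input library 4.

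Values in neuronal IP are given for some of the named genes. The fall of lin-28 was -1.50 (adjusted p = 5.94e-05) in neuronal IP, and lin-14 was at -0.01 (adjusted p = 0.989). The rises of lep-5 (5.54), mab-10 (3.50), lin-29 (1.57) and daf-12 (1.00) were also called in neuronal IP. For hlh-3 and egl-46 the log2 fold changes in neuronal IP were -1.15 and -0.08, and neither was called there (adjusted p = 0.109 and 0.899); the differences from input, -2.11 ± 0.68 and -1.41 ± 0.43, did not pass. For unc-47 and lin-31 the neuronal IP values were 0.41 and 0.33, not called, and the differences of 0.91 ± 0.34 and 1.73 ± 0.51 did not pass either.

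**Figure D5:**
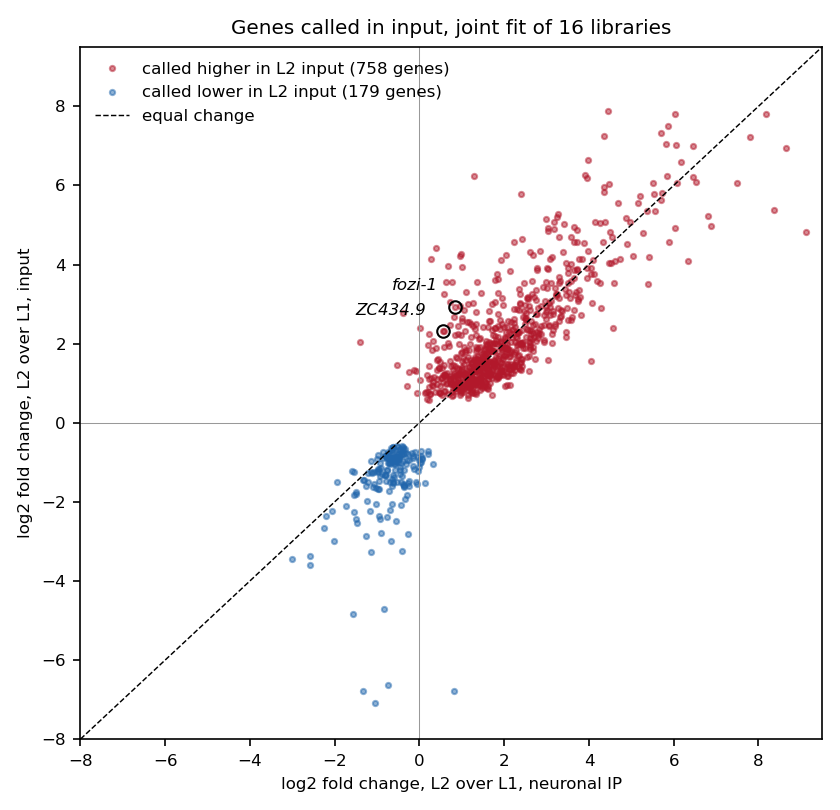
Log2 fold change of L2 over L1 in input (vertical axis) against that in neuronal IP (horizontal axis), in the joint fit of 16 libraries, for the genes called in input, with 758 called higher in red and 179 called lower in blue. The dashed line marks equal change; fozi-1 and ZC434.9, circled above it, are the 2 genes whose difference passed the threshold.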

How the data were processed

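RNA of nuclei was sequenced by the submitters; per the submitters' processing notes, Subread, featureCounts and DESeq2 were used. Their versions, the genome build and the strandedness were not found in the labels or headers. The deposited table holds raw counts per gene (41897 genes) for the control libraries; other deposited tables were not used. Here edgeR 4.0.16 in R 4.3.3 was run on these counts (TMM scaling, filterByExpr with a minimum count of 10, robust quasi-likelihood test), with adjusted p by Benjamini-Hochberg over all genes tested and a threshold of 0.05. The main fit held the 7 libraries alone, without a replicate block, and another fit of 16 libraries gave the difference between input and neuronal IP. Errors of log2 fold changes are SE. The scripts were tested on simulated counts.

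Named genes were all heterochronic genes tested and up to 4 called genes of lowest p in each other gene list. Also named were the 10 highest and 10 lowest called genes by size, and genes called for the difference. Other genes, such as further called members of a list, were added after their values were seen. The lists were compiled from general knowledge, and the lists and the comparison were chosen with earlier results of these data known. Alternatives were RLE scaling, no filter, DESeq2 1.42.0, all 16 control inputs in 1 fit, a replicate block, leaving out each library, and, chosen after seeing the data, leaving out both L1 input library 1 and L2 input library 4, and stage means without L4 input library 4. Gene models had lengths that were multiples of 3 in 82.352% of cases, so most are coding lengths, and 11 gene names had become dates. Precision is limited by 3 and 4 libraries and, for genes of few reads, by counting. The planned search for promoter motifs was not run, because promoter sequences are not used here.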

Additional observations from a re-analysis of the deposited data

Results flagged for a closer look

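Within the 4 L1 inputs, 13 of 220 values examined had a library far from the other 3 by Dixon's test at the 95% level, which flags about 1 group in 20 by chance. L1 library 4 was apart for ain-1 (173 CPM, others 223 to 233), clec-66 (45.9, others 27 to 28.0), his-32 (200.3, others 137 to 141), lin-29 (7.07, others 6.47 to 6.53), marg-1 (41.9, others 67.2 to 67.7), pcn-1 (101, others 74.7 to 75.9) and the summed apical matrix and molting enzymes (7529 CPM, others 2980 to 3330). L1 library 1 was apart for asm-3 (64.7 CPM, others 20.9 to 24.4), daf-7 (83.1, others 46.6 to 50.6), fipr-5 (0.749, others 2.87 to 3.33), tra-1 (103.6, others 81.1 to 82.0) and the summed guanylyl cyclases (979 CPM, others 749 to 770). L1 library 2 was apart for mls-2 (4.12 CPM, others 5.68 to 5.95). The change from L1 to L2 differed between input and neuronal IP, by a test of the difference, for fozi-1 (2.10 on the log2 scale) and ZC434.9 (1.76).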

How the results depend on the processing

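The number of genes called in input, 938, was 1742 with DESeq2 (1243 higher, 499 lower; 937 shared), 240 with all 16 control inputs in 1 fit (207 higher, 33 lower) and 1875 without both L1 input library 1 and L2 input library 4 (1412 higher, 463 lower), and it ran from 406 to 1517 when 1 library was left out; 960 were called with RLE scaling and 1019 with no filter. Rises made up 71.4% of calls with DESeq2 and 92.6% without L2 input library 1, against 80.9%. Replicate numbers are shared by the stages, but the deviations of same-numbered libraries correlated at -0.142, 0.252 and 0.248, and 2 of 3 libraries of each stage correlated best with their own number. As 1 pair was negative, the numbers were not taken to pair the libraries, and whether they mark shared batches was not tested. With the replicate block 626 genes were called (549 higher, 77 lower), 521 of them among the 938, and 36 collagens. The block left dpy-4 (adjusted p = 0.203), dpy-5 (0.157), col-90 (0.157), col-41 (0.147), dpy-13 (0.137), col-17 (0.102) and col-73 (0.096) uncalled. For input and neuronal IP of the same number the correlations ran from 0.187 to 0.325 in L1 and were 0.0823, 0.248 and 0.299 in L2, and 3 of 4 L1 and 2 of 3 L2 inputs correlated best with their own number. The difference between input and neuronal IP gave 1 call with RLE scaling, 15 with DESeq2 (11 higher, 4 lower), 28 with the replicate block by preparation (11 higher, 17 lower; ZC434.9 at adjusted p = 0.00412) and 0 to 2 when 1 library was left out. Of 156 named genes called, 35 were called in all 13 alternatives and 28 lost their call in the fit of all control inputs alone. Uncalled genes near 0 changed sign: lin-66 was at 0.01 with RLE scaling, no filter, DESeq2 and the replicate block, at -0.14 to 0.21 without a library and at 0.23 without both libraries, alg-2 was at -0.07 with all control inputs and at -0.05 to 0.07 without a library, sea-2 was at -0.01 to 0.39 without a library, with the lowest without L2 input library 1, and ain-1 was at -0.15 to 0.08 without a library and at 0.11 without both. The cause of these shifts was not tested. Some calls rest on few reads: egl-1 had 3, 6 and 1 in L2 inputs and 22 to 49 in L1 inputs. The number of calls is limited by 3 and 4 libraries, with L2 input library 4 apart from the others.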
